A study of Mus musculus with 2 samples.

Results

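The genes described are 8 interferon regulatory factor (IRF) genes, Irf1, Irf2, Irf3, Irf4, Irf5, Irf7, Irf8 and Irf9, and Ifnb1, which encodes interferon beta. They were chosen by symbol, though with earlier results of these data known. Each of the 9 matched a single Ensembl gene among the 55487 genes of the count table. RNA was sequenced from Langerhans cells, dendritic cells that reside in the epidermis, which were sorted as CD207+ and MHC II+ cells from digested ears of mice. The genotype of both samples was HTR2A-/-, the loss of the serotonin 2A receptor, and the sorted cells of both had been kept for 24 hours with Imiquimod, an agonist of Toll-like receptor 7, and an agent labelled a-CD40L. These 2 samples form 1 group, so the values describe stimulated knockout cells and how far 2 replicates differ. No values of wild-type or unstimulated cells were analysed here. The labels give neither the age, sex or strain of the mice nor whether the samples came from separate animals or pools, and the series title calls the cells monocyte-derived.

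IRF proteins are transcription factors that share a DNA-binding domain and bind repeats of the bases GAAA. Irf3, Irf5 and Irf7 are activated by phosphorylation downstream of Toll-like receptors and cytosolic sensors of nucleic acid, and they switch on interferon beta and interferon alpha genes. Secreted interferon then acts through its receptor on the factor ISGF3, of which IRF9 is a subunit, and this complex switches on antiviral genes and further Irf7. Irf4 and Irf8 are factors of dendritic cell and lymphocyte development, while Irf1 and Irf2 act in opposite directions on many interferon target genes.

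Of the promoters, 3 are printed because they hold letters of sites for which these genes are known. The first is the enhancer of Ifnb1, with its IRF and NF-κB sites side by side, and the others carry GAS elements, sites through which interferon gamma acts. Each run is the 250 bases before the RefSeq start (build GRCm38.p6, 5′ to 3′ on the strand of the gene). The Ifnb1 run lies at chr4:88522795-88523044 on the minus strand, the Irf1 run at chr11:53769764-53770013 and the Irf8 run at chr8:120736108-120736357, both on the plus strand. Capitals mark the IRF core AANNGAAA and the NF-κB site GGGAAATTCC in Ifnb1, and the GAS letters TTCNNNGAA in Irf1 and Irf8.
Ifnb1: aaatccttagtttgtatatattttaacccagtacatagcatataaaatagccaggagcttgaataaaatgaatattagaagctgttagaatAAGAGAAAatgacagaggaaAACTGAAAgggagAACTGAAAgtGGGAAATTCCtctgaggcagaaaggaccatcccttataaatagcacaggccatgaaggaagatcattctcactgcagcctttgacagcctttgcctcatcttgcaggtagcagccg
Irf1: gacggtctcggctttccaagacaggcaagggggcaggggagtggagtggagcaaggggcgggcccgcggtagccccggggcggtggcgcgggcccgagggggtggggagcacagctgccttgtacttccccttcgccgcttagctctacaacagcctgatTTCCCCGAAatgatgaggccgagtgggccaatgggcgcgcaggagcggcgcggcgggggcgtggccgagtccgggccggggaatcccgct
Irf8: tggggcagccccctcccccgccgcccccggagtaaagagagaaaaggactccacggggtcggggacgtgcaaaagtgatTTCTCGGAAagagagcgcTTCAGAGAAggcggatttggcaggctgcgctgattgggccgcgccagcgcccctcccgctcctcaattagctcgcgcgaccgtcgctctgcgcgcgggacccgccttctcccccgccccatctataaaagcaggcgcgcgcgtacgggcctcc

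With both strands searched, the Ifnb1 run held 3 matches to AANNGAAA, all on the strand of the gene. Of the 32851 promoter runs of this length, 4.2% held at least 2. The letters GGGAAATTCC, read from the known site of Ifnb1 itself, were in 0.0974% of them. GAS letters were found once in the Irf1 run and at 2 places in the Irf8 run, against 7.02% of all runs with at least 1 match and 0.317% with at least 2. The Irf2 run held 2 overlapping IRF cores and 1 GAS match. In the runs of Irf3, Irf4, Irf5, Irf7 and Irf9 none of these letters was found, nor in the runs before further starts of Irf1 and Irf8. These are matches of letters and not measured binding.

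Library 2 is the column that carries the replicate number 2, and the other column, which has no number, is called library 1. Library 1 held 69925160 counts and library 2 held 42264685. Levels are counts per 1000000 counts of the library (CPM), and levels of different genes are compared per kb of exon (CPM per kb). Where a ratio of counts between genes is given, the ratio per kb stands beside it, except for counts per Spi1 count, which compare the libraries and not the genes. The brackets after a level are exact 95% Poisson intervals, which cover counting error only. As a measure of low counts spread over many genes, the 95th percentile of 1135 protein-coding olfactory receptor genes, 0.761 CPM per kb in library 1 and 1.58 in library 2, was taken as the limit of background. Htr2a, the targeted gene, had 77 and 117 counts in libraries 1 and 2 and lay under this limit in both (0.196 and 0.494 CPM per kb). Which exons the allele lacks is not in the labels, so counts over the gene do not check the deletion. The markers of the sorted cells were present: all 6 Langerhans cell markers were above background in both libraries (47.3% of protein-coding genes), with Cd207 (langerin) at 1125 and 1052 CPM. Their summed level was 18638 CPM in library 1 and 10161 in library 2. With TMM scaling, 3 of the 6 were at least 2-fold lower in library 2, against 12.6% of all genes tested. These were Mfge8 (6204 and 2118 CPM), Cd74 (7188 and 4067 CPM) and H2-Ab1 (3486 and 1953 CPM), lower in the same library as most IRF genes. Cd207 was at close levels in both libraries. By CPM, Epcam (155 and 178 CPM) and Cdh1 (481 and 793 CPM) were higher in library 2. With total counts alone, edgeR's exact binomial test called 4 of the 6 markers lower (20.5% of all genes tested) and 2 higher (64.6%). Libraries 1 and 2 differed in sex-linked genes (Xist at 3.90 and 1384 CPM, Ddx3y at 149 and 0.0946 CPM). None of the 9 genes lies on a sex chromosome, but sex cannot be told apart from other differences between the libraries. Tlr7, Tlr8 and Irak1, counted among the sensor, adaptor and kinase genes below, lie on the X chromosome.

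All 9 genes were above background in both libraries, where 47.3% of all protein-coding genes were. Irf5, Irf4 and Irf8 had the highest mean levels per kb. The 8 IRF genes were expressed at a lower share of library 2 than of library 1, or at the same share in the case of Irf3, while Ifnb1 was 9.13 times higher in library 2. Per kb, Ifnb1 was the lowest of the 9 genes in library 1 and the second highest in library 2.

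**Figure D1:**
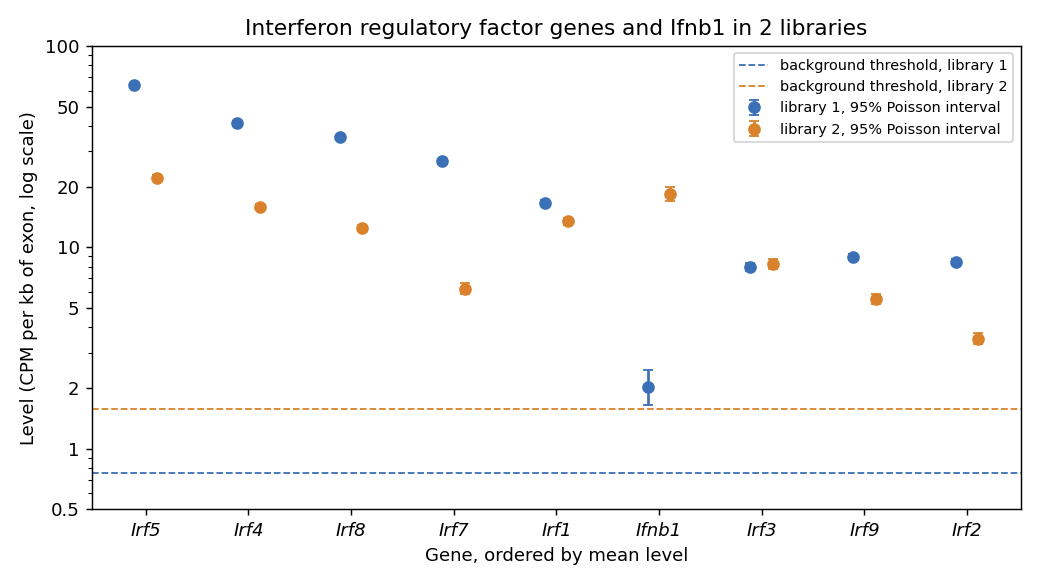
Levels of the 9 genes in CPM per kb of exon (log scale), with points for each library, exact 95% Poisson intervals as bars and the background limit of each library as a dashed line. Irf5 is highest in both libraries (64.2 and 22.1), and Ifnb1 is the only gene whose point for library 2 (18.5) stands far above that for library 1 (2.02).

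Among the factors that sensors activate, Irf5 had the highest level. Irf5 (ENSMUSG00000029771, GRCm38 chromosome 6, 29526625 to 29541871, plus strand), which couples Toll-like receptors to inflammatory cytokine genes, was at 186 CPM in library 1 (183 to 190) and 64.1 CPM in library 2 (61.7 to 66.5), or 125 ± 86.5 CPM (SD, n = 2). Library 1 thus exceeded library 2 2.91 times. Irf7 (ENSMUSG00000025498, chromosome 7, 141262706 to 141266481, minus strand), the interferon-inducible factor that drives interferon alpha genes, was at 101 CPM in library 1 (98.6 to 103) and 23.6 CPM in library 2 (22.1 to 25.1), or 62.2 ± 54.7 CPM (SD, n = 2). It differed by 4.28 times, more than any other IRF gene of the 8. Irf3 (ENSMUSG00000003184, chromosome 7, 44997648 to 45002848, plus strand), present in most cells before any stimulus, was at 27.4 CPM in library 1 (26.2 to 28.7) and 28.4 CPM in library 2 (26.8 to 30.05), a mean of 27.9 ± 0.691 CPM (SD, n = 2). Its intervals overlapped, so for Irf3 no difference in share of the library was detectable.

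The balance of Irf7 and Irf3 therefore turned between the replicates. There were 3.68 Irf7 counts for each Irf3 count in library 1 (exact 95% binomial interval 3.50 to 3.87) and 0.830 in library 2 (0.762 to 0.903). Per kb the ratios were 3.35 and 0.757, so Irf7 was the more abundant transcript in library 1 and Irf3 in library 2. A ratio within a library does not depend on how the libraries are scaled. The ratio of Irf5 to Irf7 was 1.85 (1.80 to 1.90) in library 1 and 2.72 (2.53 to 2.93) in library 2, with Irf5 the higher in both, also per kb (2.40 and 3.53).

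Irf9 (ENSMUSG00000002325, chromosome 14, 55603571 to 55610030, plus strand), the DNA-binding subunit of ISGF3, was at 48.4 CPM in library 1 (46.8 to 50.1) and 29.8 CPM in library 2 (28.1 to 31.5), or 39.1 ± 13.2 CPM (SD, n = 2). Its partner Stat2 was lower in library 2 as well, at 72.9 and 49.7 CPM in libraries 1 and 2. Per kb, Irf9 stood above Irf3 in library 1 (ratio 1.13, 1.07 to 1.19) and below it in library 2 (ratio 0.670, 0.619 to 0.726).

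Irf1 and Irf2 differed in how far the libraries stood apart. Irf1 (ENSMUSG00000018899, chromosome 11, 53770014 to 53778374, plus strand), an activator induced by interferon gamma and NF-κB, was at 66.1 CPM in library 1 (64.2 to 68.0) and 53.5 CPM in library 2 (51.3 to 55.7), or 59.8 ± 8.91 CPM (SD, n = 2). Irf2 (ENSMUSG00000031627, chromosome 8, 46739732 to 46847458, plus strand), which competes with Irf1 for the same sites, was at 62.6 CPM in library 1 (60.8 to 64.5) and 26.1 CPM in library 2 (24.5 to 27.6), a mean of 44.3 ± 25.9 CPM (SD, n = 2). The activator was the more abundant per kb in both libraries, by 1.96 times in library 1 (1.88 to 2.05) and 3.82 times in library 2 (3.55 to 4.11). Irf2 was the lowest IRF gene per kb in library 2, at 3.52 CPM per kb and 2.23 times the background limit.

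Irf4 and Irf8, the factors tied to dendritic cell identity, moved together. Irf4 (ENSMUSG00000021356, chromosome 13, 30749226 to 30766976, plus strand), which supports migration and antigen presentation on MHC class II, was at 204 CPM in library 1 (201 to 207) and 77.8 CPM in library 2 (75.2 to 80.5). Irf8 (ENSMUSG00000041515, chromosome 8, 120736358 to 120756694, plus strand), the factor of monocytes and type 1 dendritic cells, was at 249.98 CPM (246 to 254) and 87.7 CPM (84.9 to 90.5). Library 1 exceeded library 2 2.62 times for Irf4 and 2.85 times for Irf8. Irf4 counts were 0.817 times those of Irf8 in library 1 (0.799 to 0.835) and 0.888 times in library 2 (0.847 to 0.931). Per kb of exon Irf4 was the higher of this pair in both libraries, by 1.17 times (1.15 to 1.20) and 1.28 times (1.22 to 1.34), so the pair kept its order although both levels differed.

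Ifnb1 (ENSMUSG00000048806, chromosome 4, 88522025 to 88522774, minus strand), a gene of 750 bp of exon, had 106 and 585 counts in libraries 1 and 2. Scaled to depth this was 1.52 CPM (1.24 to 1.83) and 13.8 CPM (12.7 to 15.0), with a mean of 7.68 ± 8.72 CPM (SD, n = 2), so the SD over the libraries exceeded the mean. Its level per kb in library 1 reached percentile 99.6 of olfactory receptor genes and 2.66 times the background limit. In library 2 it was above every olfactory receptor gene, whose maximum was 4.13 CPM per kb, and at 11.7 times the limit. Background was itself higher in library 2, with a median olfactory receptor gene at 0.221 CPM per kb in library 1 and 0.645 in library 2. The part of this background in the Ifnb1 counts was not tested. For each Irf7 count there were 0.0150 Ifnb1 counts in library 1 (0.0123 to 0.0182) and 0.587 in library 2 (0.529 to 0.651). Per kb the ratios were 0.0756 (0.0618 to 0.0916) and 2.96 (2.67 to 3.28), so Ifnb1 was under Irf7 in library 1 and above it in library 2. The library with more transcripts of this interferon was thus the library with fewer of Irf7.

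No other interferon gene reached the level of Ifnb1 in library 2. Of 20 others, 5 were above background in both libraries, where 47.3% of all protein-coding genes were. These were Ifnk, an interferon of keratinocytes (3.68 ± 1.45 CPM per kb, SD, n = 2), Ifna9 (2.85 ± 0.290), Ifna1 (2.62 ± 0.935), Ifna4 and Ifna11. Ifnk was at 2.65 CPM per kb in library 1 and 4.70 in library 2, where Ifnb1 had 18.5. In library 1, Ifna9 (2.65 CPM per kb) and Ifnk were both above Ifnb1 (2.02). With TMM scaling, edgeR's exact binomial test called 8 of the 13 others tested higher in library 2 and 1 lower. Over all genes tested, 44.2% were called higher and 36.1% lower. The median log2 ratio of these interferon genes was 0.99, and that of olfactory receptor genes was 1.03. Ifna2 had a higher log2 ratio (3.13) than Ifnb1 (2.68), from 6 and 52 counts and under the limit in both libraries. Interferon alpha genes are close copies of each other, so how the reads were divided among them is uncertain. Ifng, the interferon of T cells and natural killer cells, was under the limit in library 2 (1.06 and 0.658 CPM per kb), and so were the interferon lambda genes Ifnl2 and Ifnl3 in that library.

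**Figure D2:**
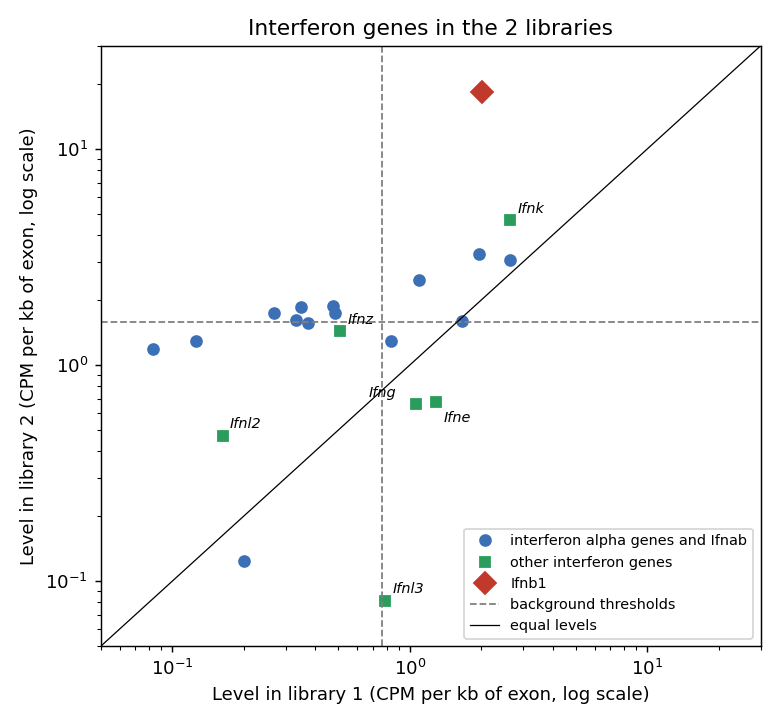
Level of each interferon gene in library 1 (horizontal) and library 2 (vertical), both in CPM per kb of exon on log scales, with the background limits dashed and the line of equal levels solid. Ifnb1, at 2.02 and 18.5, lies apart from the interferon alpha genes in library 2 only, where these stay between 0.125 and 3.28.

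Ordered by mean level per kb, the genes ran Irf5 (43.1 ± 29.8), Irf4 (28.8 ± 18.2), Irf8 (23.9 ± 16.3), Irf7 (16.5 ± 14.5), Irf1 (15.0 ± 2.24), Ifnb1 (10.2 ± 11.6), Irf3 (8.11 ± 0.201), Irf9 (7.26 ± 2.45) and Irf2 (5.99 ± 3.50 CPM per kb, SD, n = 2). The ranges over the libraries overlapped for all 8 pairs of neighbours in this order. Genes of a library share its scale, and within both libraries Irf5, Irf4, Irf8 and Irf7 descended in that order beyond counting error. The other neighbours, from Irf7 and Irf1 to Irf3 and Irf9, changed places between the libraries, and for Irf9 and Irf2 the counting intervals overlapped in library 1. In library 2 Irf5 led, followed by Ifnb1, Irf4, Irf1, Irf8, Irf3, Irf7, Irf9 and Irf2.

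Summed per kb, the 8 IRF genes came to 210 CPM per kb in library 1 and 87.3 in library 2. Irf5 made up 30.6% of this sum in library 1 and 25.3% in library 2, Irf4 19.8% and 18.2%, and Irf8 16.9% and 14.2%. Irf7 took 12.7% of the sum in library 1 and 7.15% in library 2. The genes that gained share were Irf1, with 7.91% and 15.4%, Irf3, with 3.79% and 9.44%, and Irf9, with 4.28% and 6.33%. Irf2 held the same share of 4.03% in both libraries.

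**Figure D3:**
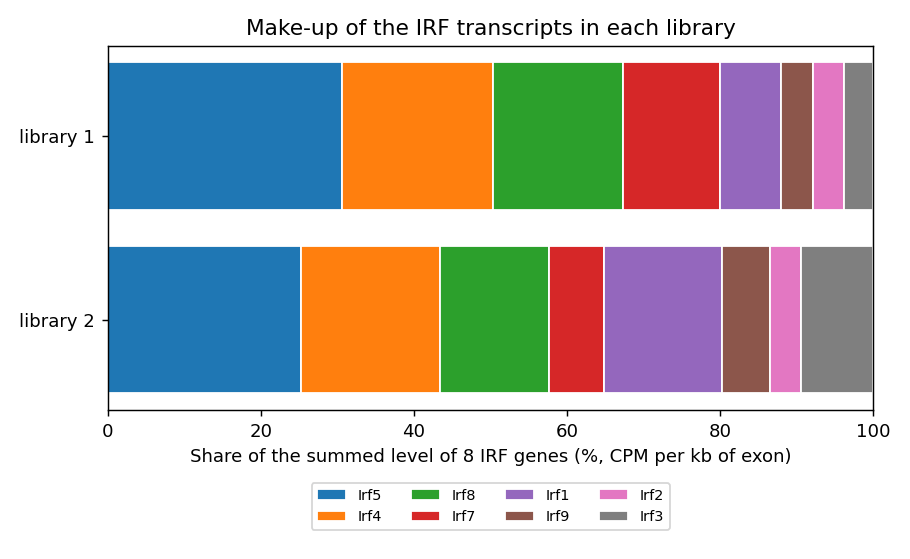
Share of each IRF gene in the summed level of the 8 IRF genes (%, from CPM per kb of exon), as stacked bars for library 1 and library 2. Irf5 is the largest part of both bars, Irf7 is smaller in library 2 (7.15% against 12.7%) and Irf1, Irf3 and Irf9 are larger.

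The replicates were compared across 30373 genes with edgeR's exact binomial test, library 2 against library 1, after TMM scaling and with Benjamini-Hochberg adjustment at 0.05. Only the noise of counting enters this test, and it sets one library against the other rather than any conditions. It called all 9 genes, where 80.2% of all genes tested were called, so the count is no result about these genes. Of them, 8 were lower in library 2 (36.1% of all genes) and Ifnb1 was higher (44.2%). At least 2-fold lower were Irf7 (log2 ratio -2.60), Irf5 (-2.04), Irf8 (-2.01), Irf4 (-1.89), Irf2 (-1.77) and Irf9 (-1.20), or 6 of 9 against 12.6% of all genes. Irf1 (-0.81) and Irf3 (-0.45) were closer to the median of all genes tested, 0.15, and Ifnb1 stood at 2.68, where 24.5% of all genes were at least 2-fold higher.

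The spread between these replicates was wide, with a biological coefficient of variation of 0.635. When edgeR's exact test assumed a dispersion of 0.04, it called 7 of the 9 genes, against 33.6% of all genes. Of these 6 were lower in library 2 (12.0% of all genes) and 1 was higher (21.6%). Irf1 (adjusted p = 0.1199) and Irf3 (adjusted p = 0.418) were the exceptions, while Irf7 had an adjusted p of 5.30e-08 and Ifnb1 of 9.27e-08. At the dispersion estimated from the 2 libraries, 0.403, edgeR's exact test called 0 of the 9, and 0 of them had an unadjusted p under 0.05, where 6.06% of all genes had. The smallest unadjusted values were 0.0649 for Ifnb1 and 0.0714 for Irf7, and 0.0593% of all genes were called. This dispersion comes from the same 2 libraries that are compared, so the difference enters its own error, and the absence of calls does not show that the levels were alike.

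Irf7 was lower and Ifnb1 higher in library 2 under all 4 scalings compared, while the sign for Irf3 turned with total counts and Cd207, and those of Irf3 and the other 6 IRF genes with Spi1. TMM shifted log2 ratios by -0.501 against total counts, and with total counts alone the median of all genes tested was 0.65. On that scale Irf3 had a ratio of 0.05 and was not called, and Irf1 and Irf9 had -0.31 and -0.70. Relative to Cd207, whose share of both libraries was close, the values were near those from total counts, from -2.00 for Irf7 to 3.29 for Ifnb1, with Irf3 at 0.15. Scaling on 1 gene adds the same amount to every ratio, and Spi1 itself had a TMM log2 ratio of -2.11, so values relative to it show only which genes differed more or less than Spi1. Relative to Spi1, which encodes PU.1, the myeloid factor that binds DNA together with Irf4 and Irf8, Irf5 (0.07), Irf8 (0.10) and Irf4 (0.22) were nearly level between the libraries. On this scale Irf2 had 0.34, Irf9 0.91, Irf1 1.30 and Irf3 1.66, Irf7 was lower in library 2 (-0.49) and Ifnb1 higher (4.80). The scalings on Cd207 and Spi1 were chosen after the values had been seen. Any gene with a TMM log2 ratio near that of Spi1 is level on its scale, such as Jak2 (-2.13), Unc93b1 (-2.10) and Mfge8 (-2.05). Being level with Spi1 is thus not particular to these IRF genes. The order of the 9 genes was the same on all 4 scales, since a scaling moves them together.

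**Figure D4:**
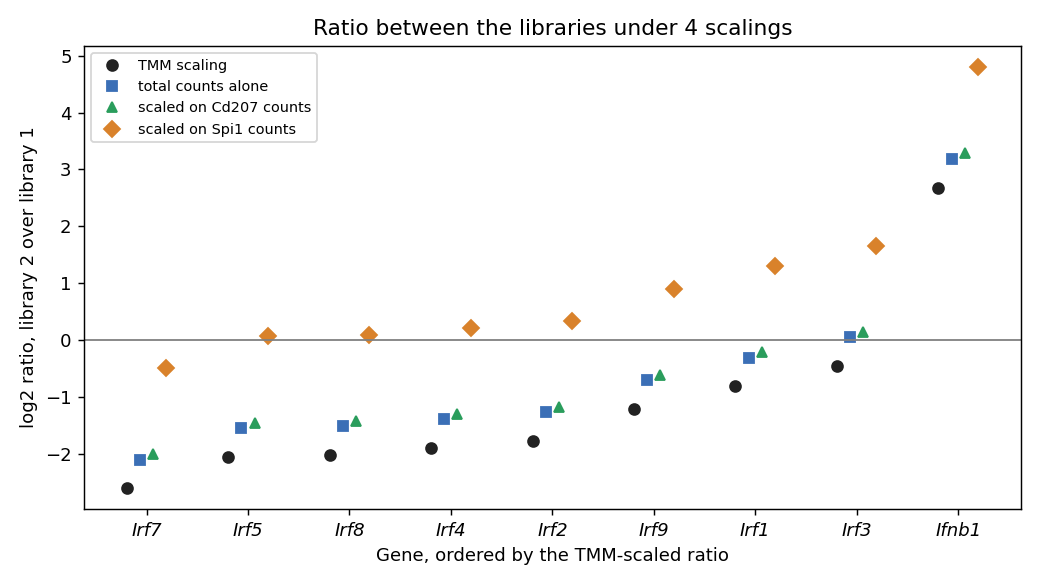
Log2 ratio of library 2 over library 1 for each gene under 4 scalings, shown by marker shape. Ifnb1 is above 0 and Irf7 below 0 under all 4, while Irf5, Irf8 and Irf4 lie between -2.04 and -1.89 with TMM and between 0.07 and 0.22 when scaled on Spi1.

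Counted per Spi1 count, there were 1.08 Irf5 counts in library 1 and 1.13 in library 2, 1.45 and 1.55 Irf8 counts, and 1.18 and 1.38 Irf4 counts. From these same counts, Spi1 was one of the protein-coding genes whose level was most like that of Irf5. By Euclidean distance in log2(CPM per kb + 1) over the 2 libraries, the nearest to Irf5 were Clec4n (0.0596), a C-type lectin receptor of myeloid cells, Spi1 (0.0689) and Pik3ap1 (0.101), an adaptor of phosphoinositide 3-kinase. The nearest to Irf4 were Spint1 (0.0418), a protease inhibitor of epithelia, Slc15a3 (0.0672) and Arl6ip5 (0.0872), and those to Irf7 were Nuak2 (0.0662), Sema6d (0.0788) and Prkcb (0.147). Likeness over 2 libraries is a weak measure, and 8 genes lay within 0.2 of Irf5 and 18 within 0.2 of Irf4.

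The steps before the IRF proteins were lower in library 2 throughout with TMM scaling. Of 21 sensor, adaptor and kinase genes, edgeR's exact binomial test called 21 lower and 0 higher, with a median log2 ratio of -1.17, against 36.1% lower, 44.2% higher and a median of 0.15 over all genes. With total counts alone it called 16 lower and 1 higher, with a median of -0.67, against 20.5% lower, 64.6% higher and a median of 0.65 over all genes. The chaperone Unc93b1, which carries endosomal Toll-like receptors to their place of action, was at 114 and 37.7 CPM in libraries 1 and 2, and the adaptor Myd88 at 83.4 and 39.6 CPM. Tlr7, the receptor of Imiquimod, was at 3.42 CPM per kb in library 1 and 1.56 in library 2, just under the background limit there. The kinase Tbk1, which phosphorylates IRF3, was at 69.0 and 71.1 CPM, and so differed as little as Irf3 did. Background was exceeded in both libraries by 17 of the 21 (47.3% of protein-coding genes), the exceptions being Tlr3, Tlr4, Tlr7 and Tlr8.

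Interferon receptors and their signalling genes were above background in 11 of 11 cases (47.3% of protein-coding genes). The test called 10 of 11 lower (36.1% of all genes) and 1 higher (44.2%) in library 2 (median log2 ratio -1.11). With total counts alone the count was the same (median -0.61), where 20.5% of all genes were lower and 64.6% higher. The kinase Jak2 had the highest mean level per kb (63.5 ± 46.0 CPM per kb, SD, n = 2) and was at 483 and 156 CPM. Ifnar1, a chain of the receptor for interferon beta, was at 148 and 132 CPM, and Ifnar2, the other chain, at 82.2 and 53.9 CPM. Ifnlr1, the receptor chain for interferon lambda found on epithelia, was the gene called higher, at 5.95 and 10.4 CPM.

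Of 11 DNA-binding partners of IRF proteins, 8 were called lower (36.1% of all genes) and 2 higher (44.2%), with a median log2 ratio of -0.89. With total counts alone 7 were lower (20.5% of all genes) and 3 higher (64.6%). Batf3, a partner of Irf8 and Irf4 in dendritic cells, was at 14.7 and 2.25 CPM, under the background limit in library 2, and Batf, which binds composite sites with Irf4, was at 9.05 and 2.84 CPM. Rela, the NF-κB subunit that joins IRF proteins at the Ifnb1 enhancer, was the partner with the highest ratio, at 74.3 and 159 CPM. Jun, a subunit of AP-1 that binds the same enhancer, was at 947 and 1690 CPM.

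Type I interferon target genes were not in step with each other. Background was exceeded in both libraries by 14 of 16 (47.3% of protein-coding genes). Of the 16, 6 were called higher (44.2% of all genes) and 10 lower (36.1%) in library 2 (median log2 ratio -0.99). With total counts alone 7 were higher (64.6% of all genes) and 9 lower (20.5%), with a median of -0.49. Higher in library 2, as Ifnb1 was, were Ifit1, an antiviral RNA-binding protein (22.8 and 96.6 CPM), Rsad2, the antiviral enzyme viperin (55.9 and 193 CPM), the chemokine gene Cxcl10 (19.8 and 44.8 CPM) and the ubiquitin-like modifier Isg15 (14.9 and 29.1 CPM). At least 2-fold higher with TMM were Ifit1 and Rsad2. Lower in library 2, as Irf7 was, were Oas3, an enzyme that answers double-stranded RNA (38.1 and 13.4 CPM), Usp18, an inhibitor of the interferon receptor (32.4 and 14.6 CPM), and Bst2, the antiviral membrane protein tetherin (15.9 and 7.12 CPM). Ifit2, from the same family as Ifit1, was at 54.3 and 4.02 CPM, under the background limit in library 2. The ratio of Ifit2 thus differed in the opposite direction from that of Ifit1.

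Of 10 target genes of interferon gamma and Irf1, 9 were called lower (36.1% of all genes) and 0 higher (44.2%), with a median log2 ratio of -1.56. With total counts alone 9 were lower (20.5% of all genes) and 1 higher (64.6%). The proteasome subunit Psmb8 was at 153 and 54.1 CPM, Ciita, the master regulator of MHC class II genes, at 189 and 106 CPM, and the peptide transporter Tap1 at 98.5 and 62.6 CPM. Nos2, the inducible nitric oxide synthase, was at 44.4 and 7.59 CPM. The smallest difference among those called lower was that of Gbp5, a guanylate-binding protein (20.2 and 17.3 CPM). The chemokine gene Cxcl9 (1.60 and 2.48 CPM) was not called with TMM scaling.

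**Figure D5:**
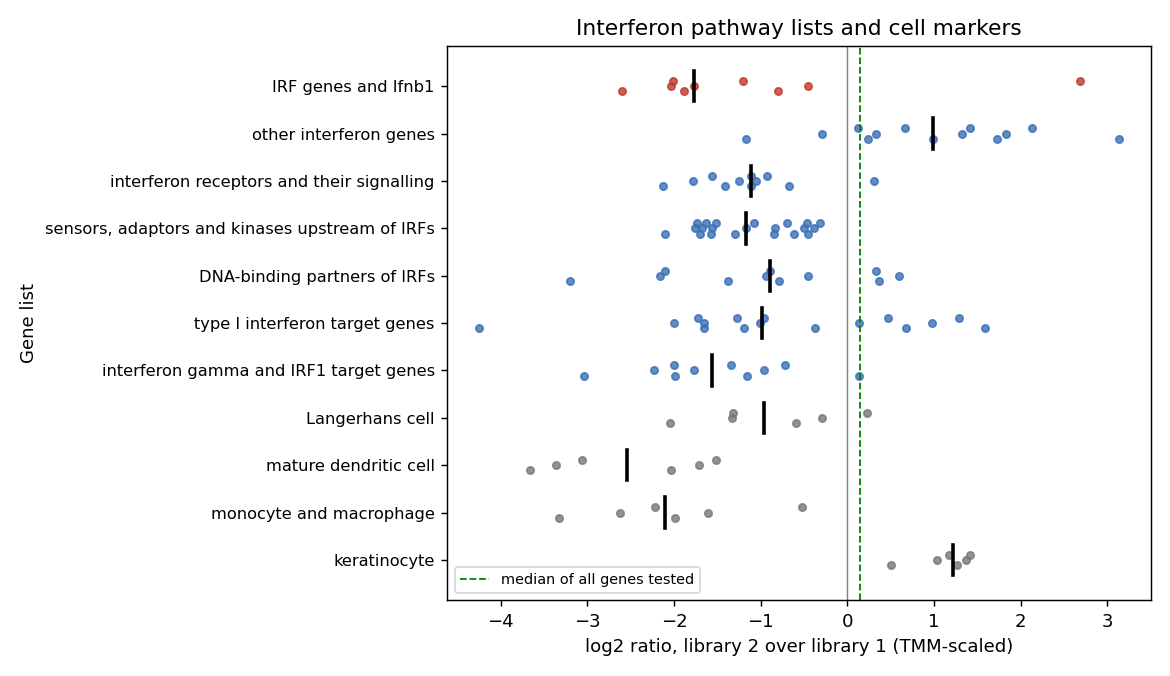
Log2 ratio of library 2 over library 1 (TMM-scaled) for each tested gene of the 9 genes, 6 of the pathway lists and 4 of the marker lists, with black bars for list medians and a dashed line for the median of all genes tested (0.15). The IRF genes lie between -2.60 and -0.45 on this scale (7 of 8 are above 0 when scaled on Spi1), Ifnb1 (2.68) lies beyond all 6 keratinocyte markers, and the type I interferon target genes spread from -4.25 to 1.58.

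Markers of other cells moved with these differences, and their part in them was not tested. The 6 mature dendritic cell markers summed to 3066 and 772 CPM in libraries 1 and 2, and the 6 monocyte and macrophage markers to 1752 and 755 CPM, lower in library 2 like Irf4, Irf5, Irf7 and Irf8. The 6 keratinocyte markers summed to 3748 and 12615 CPM, higher in library 2 like Ifnb1. In a bulk sample, fewer cells of a type and less RNA per cell cannot be told apart.

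Further marker lists were above background in part, where 47.3% of all protein-coding genes were in both libraries. A count near this share does not show that a cell type was present. Of the 6 plasmacytoid dendritic cell markers, 1 was above background in both libraries. This was Ly6d (45.7 and 98.97 CPM), which keratinocytes also express, while Siglech was at 0.304 and 1.22 CPM per kb, under the limits. Of the type 1 dendritic cell markers 3 of 5 were above background in both libraries, Clec9a in library 1 alone and Xcr1 in neither. Of the B cell markers 0 of 5 were above background in both libraries, and 0 of 5 fibroblast markers were. In library 1 alone, 1 of the B cell markers and 3 of the fibroblast markers were above it. Of the T cell markers 4 of 6 were above background in both libraries and 6 of 6 in library 1, with summed levels of 187 and 116 CPM. With TMM scaling 4 of these 6 were called lower in library 2 (36.1% of all genes) and 1 higher (44.2%). The gene called higher was Thy1, at 30.9 and 68.3 CPM. No marker of these lists had 0 counts in a library.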

How the data were processed

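The authors deposited raw counts for each Ensembl gene in 1 table for both libraries. StringTie, HISAT2, SAMtools, Trimmomatic and GRCm38 are listed in the submitters' processing notes. Whether strand was used, how reads were counted and on which annotation release is not given in the sources used here. Reads of overlapping genes therefore cannot be told apart. A last row of column totals and a blank row were left out. Symbols, positions and exon lengths (union of exons) came from GENCODE M21 on GRCm38 (55227 of 55487 rows), and promoter runs from RefSeq (GRCm38.p6), which held all 9 genes. CPM, CPM per kb and intervals were computed in Python 3.11.15 with scipy 1.17.1.

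Genes that reached 1 CPM in either library entered TMM scaling and the exact binomial test (binomTest, with its approximation for large counts) from edgeR 4.0.16 under R 4.3.3, since 1 group of 2 leaves no residual degrees of freedom for a quasi-likelihood test. The test script was checked on simulated data. Log2 ratios use a prior count of 1. Alternatives were DESeq2 1.42.0 size factors, total counts, other count filters and dispersions, and other background limits. The genes, the 7 pathway lists (94 genes; Tasl had no match by symbol) and the 9 marker lists were chosen with earlier results of these data known. All 9 genes are named, and 2 genes of the pathway lists are not reported here. Of each pathway list, the 3 genes with the highest mean CPM per kb, and genes called at least 2-fold different with a mean of at least 10 CPM, could be named, and others, such as Ifnar1, Tlr7, Ifit2 and Batf, were named for their role or after their values were seen. Genes most alike in level were the 3 nearest for the 2 highest genes and for Irf7. The labels do not say which animals the samples came from, and their sex-linked genes differ, so the libraries do not come from a single animal. P-values compare these 2 libraries only. Those of the exact binomial test cover counting error alone, and those at a dispersion of 0.04 rest on an assumed spread.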

Additional observations from a re-analysis of the deposited data

How the results depend on the processing

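The 9 genes were above background in both libraries under every limit tried: percentiles 90 and 99 of olfactory receptor genes, percentile 95 of vomeronasal receptor genes, and each library by itself. The count of genes called between the libraries was 9 with DESeq2 size factors, without a count filter and with a minimum of 10 counts in each library, 8 with total counts alone and 7 at a dispersion of 0.04. It was 0 at the estimated dispersion, since the assumed spread is wider. Irf3 reversed with total counts alone (log2 ratio 0.0505) and scaled on Cd207 (0.15). Scaling on Spi1, which is itself lower in library 2, adds the same amount to the ratio of every gene, so the reversals follow from that constant. The values were 1.30 for Irf1, 0.34 for Irf2, 1.66 for Irf3, 0.22 for Irf4, 0.0681 for Irf5, 0.10 for Irf8 and 0.91 for Irf9. Per 1000000 protein-coding counts the mean levels of Irf1, Irf3 and Irf9 moved beyond their SD, to 84.8, 39.6 and 55.4 CPM, because the total is smaller. Means and ratios over 2 libraries become the value of the other library when 1 is left out, and these are the values given per library above. No paired analysis was possible because there is a single group.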

Other observations

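Several of the 9 genes share exon bases with a neighbour, and strand use in the counting is not given. Irf5 shares 411 bp with Tnpo3 on the opposite strand (4131 and 2658 counts in libraries 1 and 2), Irf1 135 bp with the opposite-strand gene Gm17334 (1042 and 1083 counts), Irf9 123 bp with Rnf31 on its own strand (2230 and 1175 counts), Irf3 88 bp with Bcl2l12 (267 and 95 counts) and Irf7 45 bp with Phrf1 (5378 and 4594 counts), both on the opposite strand. Irf2, Irf4, Irf8 and Ifnb1 share no exon bases with another gene of the annotation.

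Among the proteins that bind Irf2 rather than DNA, the co-repressor gene Irf2bp2 was at 173 and 96.2 CPM in libraries 1 and 2, above Irf2 per kb in both (34.0 and 18.9 CPM per kb). Irf2bp1 was at 9.84 and 12.1 CPM and Irf2bpl at 31.2 and 35.5 CPM.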
